A study of Mus musculus with 18 samples.

Results

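Endothelial cells line the blood vessels of the brain, and 9 genes with a central role in these cells and in the blood-brain barrier are described here in mouse cerebellum. They are the barrier transporters Abcb1a, Slco1c1, Slco1a4 and Slc2a1, the growth factor receptors Flt1, Kdr and Tek, and the junction and adhesion genes Cldn5 and Pecam1. Every probe set annotated with exactly 1 of these symbols was taken, which gave 15 of the 34945 probe sets with 1 gene symbol, and each of the 9 genes was measured among 18193 genes. Slc2a1 had 3 probe sets, Abcb1a 2 and Flt1 4, and the other genes had 1 each. The rule itself uses gene symbols and no measured value, but the genes were proposed with earlier results of these data known.

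The study examined mice for spinocerebellar ataxia type 6, a disease of the cerebellum caused by a repeat expansion in the gene of the calcium channel Cav2.1. Cerebellum RNA of C57BL/6 mice, homozygous mutants and wild-type littermates, was hybridised to 18 Affymetrix arrays, 3 in each of 6 groups. The groups were MPI 118Q/118Q knock-in mice (118Q-KI) and their wild-type littermates (118Q-WT), Sca6 CtmKO/CtmKO mice (CtmKO) and their wild-type littermates (CtmWT), and MPI 11Q/11Q knock-in mice (11Q-KI) and their wild-type littermates (11Q-WT). The age given is 6 weeks for the 118Q/118Q and CtmKO/CtmKO mice. No promoter-driven transgene or Cre is named, and the labels do not define the abbreviations MPI and Ctm further. The labels call the 3 samples of a group replicates and do not describe their origin further, so p-values measure the spread between these samples.

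Values are log2 expression per probe set. Array medians lay between 2.38 and 2.55, and correlations between arrays between 0.973 and 0.995. Markers of cerebellar granule cells averaged 8.81 to 9.26 on every array, and of the endothelial genes Cldn5 and Slc2a1 lay above the array medians on all 18 arrays while Pecam1 lay near them. The zero point of the scale is not known, so levels are compared for the same probe set only. For each gene the brightest probe set was used, and every probe set was also tested by itself. A change is the mutant mean minus the mean of its own wild-type littermates on the log2 scale, and it was called where the limma adjusted p, over all genes or all probe sets, was below 0.05.

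The barrier arises because brain endothelial cells are sealed by tight junctions and move substances with dedicated transporters. Abcb1a encodes P-glycoprotein, which pumps drugs and other lipophilic compounds back into the blood. Slc2a1 encodes the glucose transporter GLUT1, Slco1c1 a transporter of thyroid hormone, and Slco1a4 a transporter of organic anions. Flt1 and Kdr encode receptors of vascular endothelial growth factor, and Tek encodes TIE2, the angiopoietin receptor. Cldn5 encodes claudin-5, the main claudin of the barrier's tight junctions, and Pecam1 encodes the adhesion molecule CD31.

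Flt1 and Abcb1a were lower in 118Q-KI mice than in 118Q-WT mice, each at about 0.54 times the wild-type level by its brightest probe set, and no member passed the test in the CtmKO or 11Q-KI mice. In the 118Q line all 9 genes had a negative log2 change, against 41.3% of all genes. Their median change was -0.44, against 0.04 over all genes. Averaged over its 4 probe sets, Flt1 changed by -0.42 (limma adjusted p = 0.0395), against -0.90 for the brightest. Averaged over its 2 probe sets, Abcb1a changed by -0.92 (0.0507). The 2 called members are to be read against 0.731% of all genes called lower in this line. In bulk tissue, fewer endothelial cells and less RNA per endothelial cell cannot be told apart.

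**Figure D1:**
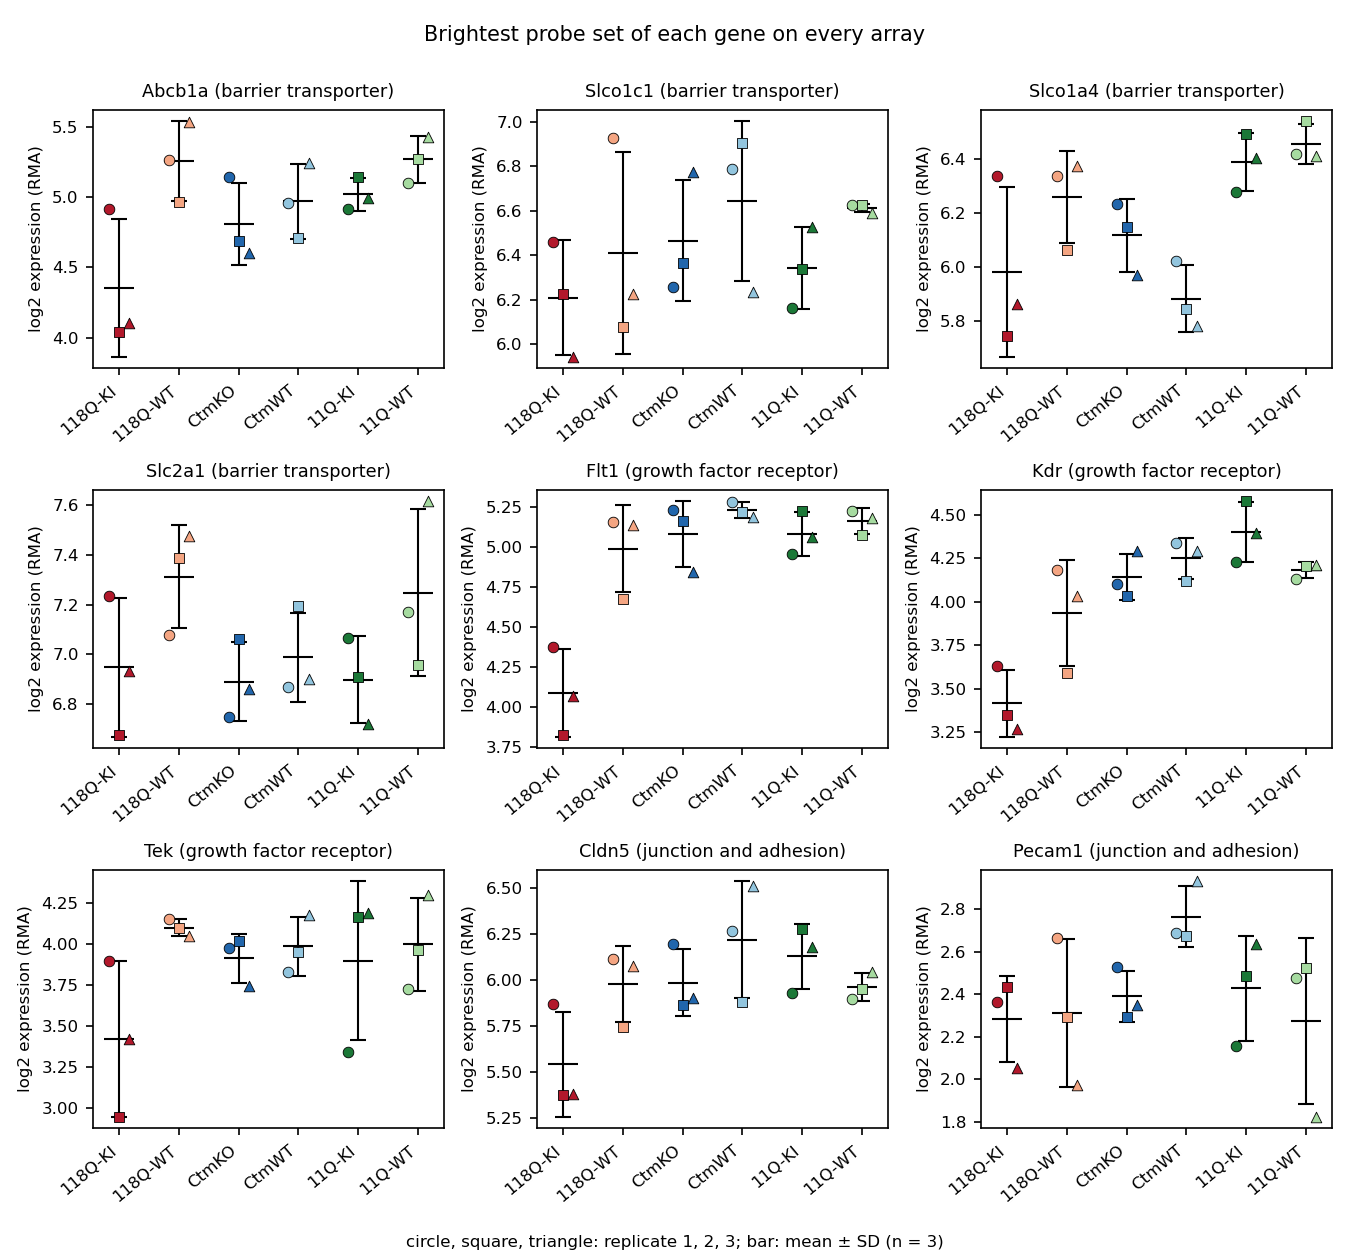
Log2 expression (vertical axis) of the brightest probe set of each of the 9 genes on all 18 arrays, by group, with mean ± SD (n = 3). The 118Q-KI arrays hold the 3 lowest Flt1 values of all 18 arrays, and Abcb1a is lower on every 118Q-KI array than on any 118Q-WT array.

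The promoters of the 2 genes that fell are shown because they were compared for shared motifs. They are RefSeq windows of 300 bases around the start site on GRCm38.p6, at chr5:8566841-8567140 (plus strand) for Abcb1a and chr5:147725962-147726261 (minus strand) for Flt1. Capitals mark matches, on either strand, to any of 4 motif cores searched.
Abcb1a: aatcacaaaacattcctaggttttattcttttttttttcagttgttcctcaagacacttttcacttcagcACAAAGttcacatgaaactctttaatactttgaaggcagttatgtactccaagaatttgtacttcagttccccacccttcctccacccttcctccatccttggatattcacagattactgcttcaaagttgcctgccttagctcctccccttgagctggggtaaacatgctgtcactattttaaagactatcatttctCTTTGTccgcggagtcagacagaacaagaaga
Flt1: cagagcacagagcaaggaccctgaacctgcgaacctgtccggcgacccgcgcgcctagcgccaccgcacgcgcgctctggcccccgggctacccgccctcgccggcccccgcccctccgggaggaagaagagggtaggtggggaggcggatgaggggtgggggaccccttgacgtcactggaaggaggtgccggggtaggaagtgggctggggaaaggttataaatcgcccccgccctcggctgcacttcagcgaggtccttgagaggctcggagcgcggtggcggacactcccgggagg
Each core was searched as an exact string: CGGAAG (ETS), CTTTGAT (TCF/LEF), ACAAAG (SOX) and ACGTG (hypoxia response). Variants of these strings were not searched. The Abcb1a window held ACAAAG at -180 on the plus strand and at 19 on the minus strand, counted from the start site. The Flt1 window held none of the 4 exact strings. Among the windows of the 8 members found in the table, ACAAAG was also present in Slco1c1 and Tek, against 18.7% of all 32851 windows. ACGTG was present in Slc2a1 and, as 2 overlapping matches on opposite strands, in Slco1c1, against 19.6% of all windows. CGGAAG and CTTTGAT were in none of the 8, against 16.9% and 3.73% of all windows. The 2 windows also differed in base composition, with 40.3% G and C in Abcb1a and 70.7% in Flt1. These matches describe letters only, and the absence of a string does not show that a window lacks other forms of that motif.

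The growth factor receptors had the lowest median change of the 3 roles in the 118Q line, -0.68 over 3 genes. Flt1, whose product binds VEGF-A, VEGF-B and placental growth factor and also exists as a soluble decoy, had log2 levels of 4.37, 3.83 and 4.06 in 118Q-KI mice, against 5.16, 4.67 and 5.14 in 118Q-WT mice. The groups did not overlap. The mean was 4.09 ± 0.28 in 118Q-KI mice and 4.99 ± 0.27 in 118Q-WT mice (SD, n = 3 each). Flt1 fell by 0.90 on the log2 scale (SE 0.15, limma adjusted p = 0.0124), with a 95% interval of -1.21 to -0.59.

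This call depended on single arrays. Without 118Q-KI 1 or 118Q-WT 2 the limma adjusted p was 0.00101 or 0.00418, and without 118Q-WT 1 it was 0.0425. It was 0.0668 without 118Q-KI 2, 0.088 without 118Q-KI 3 and 0.0724 without 118Q-WT 3. The change itself ranged between -1.06 and -0.77 over these 6 fits. Fitted on the 6 arrays of the line alone, Flt1 had a limma adjusted p of 0.211.

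Tested by itself over all probe sets, the brightest Flt1 probe set, 1419300_at, was called (limma adjusted p = 0.0218). It was the only one of the 15 member probe sets that passed, against 0.292% of all probe sets called lower. The probe set 1451756_at had 4.35, 4.26 and 4.16 in 118Q-KI mice, against 5.06, 4.67 and 4.71 in 118Q-WT mice, a change of -0.56 (SE 0.13, limma adjusted p = 0.0511). Another, 1440926_at, had 3.09, 3.15 and 3.06 in 118Q-KI mice, against 3.51, 3.34 and 3.31 in 118Q-WT mice, a change of -0.29 (limma adjusted p = 0.284). In all 3 the groups did not overlap. The last, 1454037_a_at, was dim, with values between 1.24 and 1.85 that lay under all array medians, and its change was 0.08.

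Kdr, the main signalling receptor for VEGF-A in endothelial cells, had log2 levels of 3.63, 3.35 and 3.27 in 118Q-KI mice, against 4.18, 3.59 and 4.03 in 118Q-WT mice. The highest 118Q-KI array lay above the lowest 118Q-WT array. The change of -0.52 (SE 0.14) did not pass the test (limma adjusted p = 0.069). It passed without 118Q-KI 1 (0.0236) and without 118Q-WT 2 (0.0202), and it did not pass without any other array of the line, where the adjusted p lay between 0.206 and 0.276.

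Tek had log2 levels of 3.90, 2.95 and 3.42 in 118Q-KI mice, against 4.15, 4.10 and 4.05 in 118Q-WT mice. The groups did not overlap, and the knock-in arrays were spread more widely than the wild-type arrays. The change of -0.68 (SE 0.22) did not pass (limma adjusted p = 0.127). Without 118Q-KI 1 it was -0.92 and passed (0.0249), and without 118Q-KI 2 it was -0.44 (0.443).

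**Figure D2:**
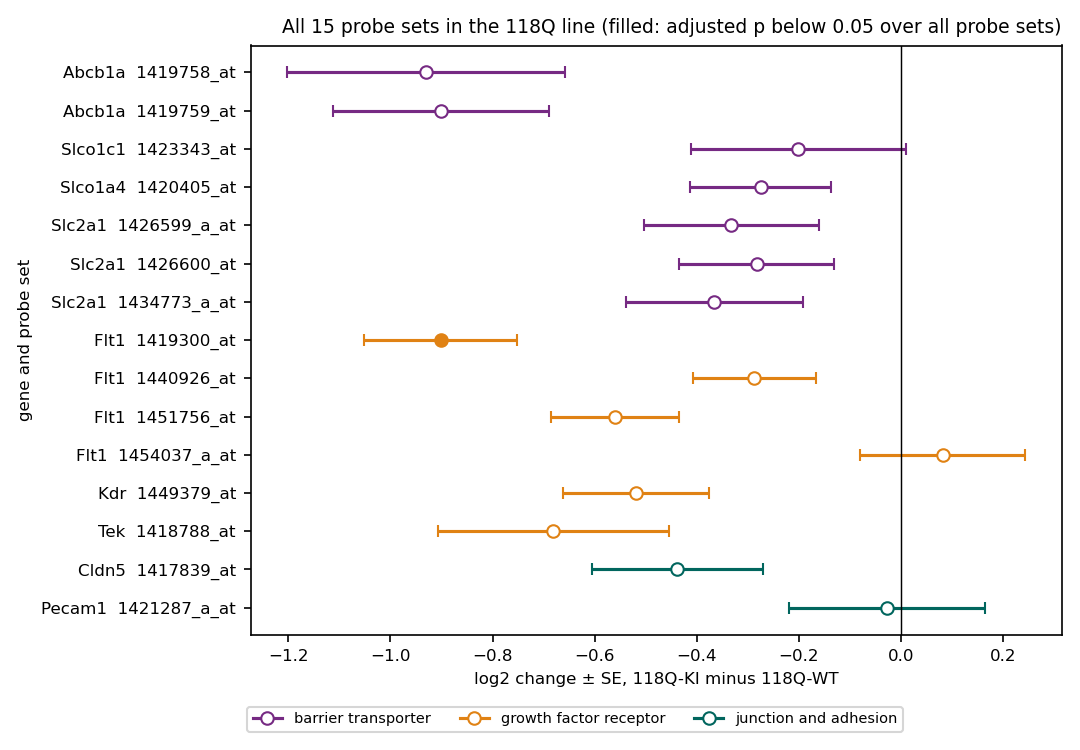
Log2 change ± SE (horizontal axis, 118Q-KI minus 118Q-WT, limma fit over 18 arrays) of each of the 15 probe sets, by gene. Of these, 14 lie below 0, and the filled point, Flt1 1419300_at at -0.90, is the one called.

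The barrier transporters had a median change of -0.32 over 4 genes in the 118Q line, and 1 of them passed. Abcb1a had log2 levels of 4.92, 4.04 and 4.11 in 118Q-KI mice, against 5.26, 4.97 and 5.54 in 118Q-WT mice. The groups did not overlap, although the highest 118Q-KI array lay close to the lowest 118Q-WT array. The mean was 4.35 ± 0.49 in 118Q-KI mice and 5.25 ± 0.29 in 118Q-WT mice (SD, n = 3 each). Abcb1a fell by 0.90 on the log2 scale (SE 0.21, limma adjusted p = 0.0384), with a 95% interval of -1.34 to -0.46.

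The Abcb1a call also depended on single arrays. Its limma adjusted p was 0.00184 without 118Q-KI 1 and 0.0348 without 118Q-WT 2. It lay above the threshold without 118Q-KI 2 (0.165), 118Q-KI 3 (0.187), 118Q-WT 1 (0.0978) and 118Q-WT 3 (0.175), with changes between -0.90 and -0.74 in those 4 fits. Over all probe sets the same probe set had a limma adjusted p of 0.0571. The other probe set, 1419758_at, had 4.29, 2.75 and 3.20 in 118Q-KI mice, against 4.24, 4.33 and 4.45 in 118Q-WT mice. There the first 118Q-KI array lay within the wild-type range, and the change was -0.93 (SE 0.27, limma adjusted p = 0.117).

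Slc2a1, by its brightest probe set, had log2 levels of 7.23, 6.67 and 6.93 in 118Q-KI mice, against 7.08, 7.39 and 7.47 in 118Q-WT mice. The groups overlapped, and the change of -0.37 did not pass (limma adjusted p = 0.304). Its other probe sets changed by -0.33 and -0.28 in this line, neither past the test. Without 118Q-KI 2 the change of the brightest was -0.23 (0.661). Slco1a4 had log2 levels of 6.34, 5.75 and 5.86 in 118Q-KI mice, against 6.34, 6.06 and 6.37 in 118Q-WT mice, a change of -0.28 (limma adjusted p = 0.333). Its first 118Q-KI array stood at the wild-type level, and without that array the change was -0.45 and passed (0.041). Without 118Q-KI 2 it was -0.16 (0.712).

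Slco1c1 had log2 levels of 6.46, 6.22 and 5.94 in 118Q-KI mice, against 6.93, 6.08 and 6.23 in 118Q-WT mice. The groups overlapped, the change was -0.20 (limma adjusted p = 0.7), and over the fits without each array of the line it ranged between -0.37 (without 118Q-WT 2) and 0.06 (without 118Q-WT 1). Without 118Q-KI 3 it was -0.07. The mean level of 12 choroid plexus markers was 6.06 in 118Q-WT 1 and 2.39 in 118Q-WT 2. After group means were subtracted, Slco1c1 correlated with that mean at 0.87 over 18 arrays. The next highest member was Kdr, at 0.505. With that mean as a covariate the Slco1c1 change in the 118Q line was -0.17 (limma adjusted p = 0.561).

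Of the junction and adhesion genes, Cldn5 had log2 levels of 5.87, 5.37 and 5.38 in 118Q-KI mice, against 6.12, 5.74 and 6.08 in 118Q-WT mice. One knock-in array lay within the wild-type range. The change of -0.44 (SE 0.17) did not pass (limma adjusted p = 0.187). Without 118Q-KI 1 it was -0.60 and passed (0.0464), and without 118Q-KI 2 it was -0.35 (0.464). Pecam1 had log2 levels of 2.37, 2.43 and 2.05 in 118Q-KI mice, against 2.67, 2.29 and 1.97 in 118Q-WT mice. Its groups overlapped fully, with a change of -0.03 and a 95% interval of -0.43 to 0.37, and its levels lay near the array medians.

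Over the 9 genes, 3 had groups that did not overlap in the 118Q line (Abcb1a, Flt1 and Tek), all lower, against 6.11% of all genes. Of the 15 probe sets, 5 did so, against 5.88% of all probe sets. At an unadjusted p below 0.05, 6 of the 9 genes were lower, against 5.69% of all genes.

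The 3 knock-in arrays of the 118Q line differed from each other. Averaged over the 9 genes, their deviations from the wild-type mean were -0.16, -0.66 and -0.61 on the log2 scale. The first array was among the lowest 3 of all 18 arrays in 1 of the 9 genes, and the other arrays in 7 each. For the receptors the deviations were -0.37, -0.97 and -0.76, and for the transporters -0.07, -0.64 and -0.60. Without the first array, 6 of the 9 genes were called (Abcb1a, Slco1a4, Flt1, Kdr, Tek and Cldn5), and 5.17% of all genes. None was called without 118Q-KI 2, 118Q-KI 3 or 118Q-WT 3, fits in which at most 7 of all genes were called. Flt1 alone was called without 118Q-WT 1, against 0.374% of all genes. Abcb1a, Flt1 and Kdr were called without 118Q-WT 2, against 1.32% of all genes.

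**Figure D3:**
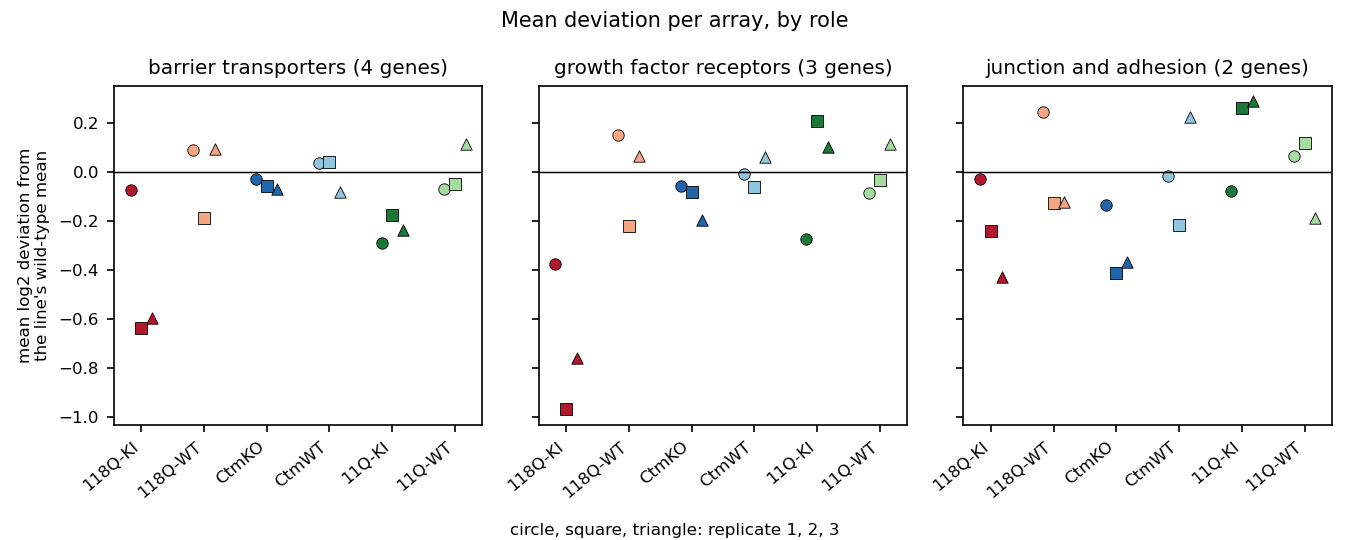
Mean log2 deviation of each array from its line's wild-type mean (vertical axis), averaged over the 4 transporters, the 3 receptors and the 2 junction and adhesion genes. The 118Q-KI arrays 2 and 3 lie lowest for transporters (-0.64 and -0.60) and receptors (-0.97 and -0.76), and array 1 lies nearer to 0.

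**Figure D4:**
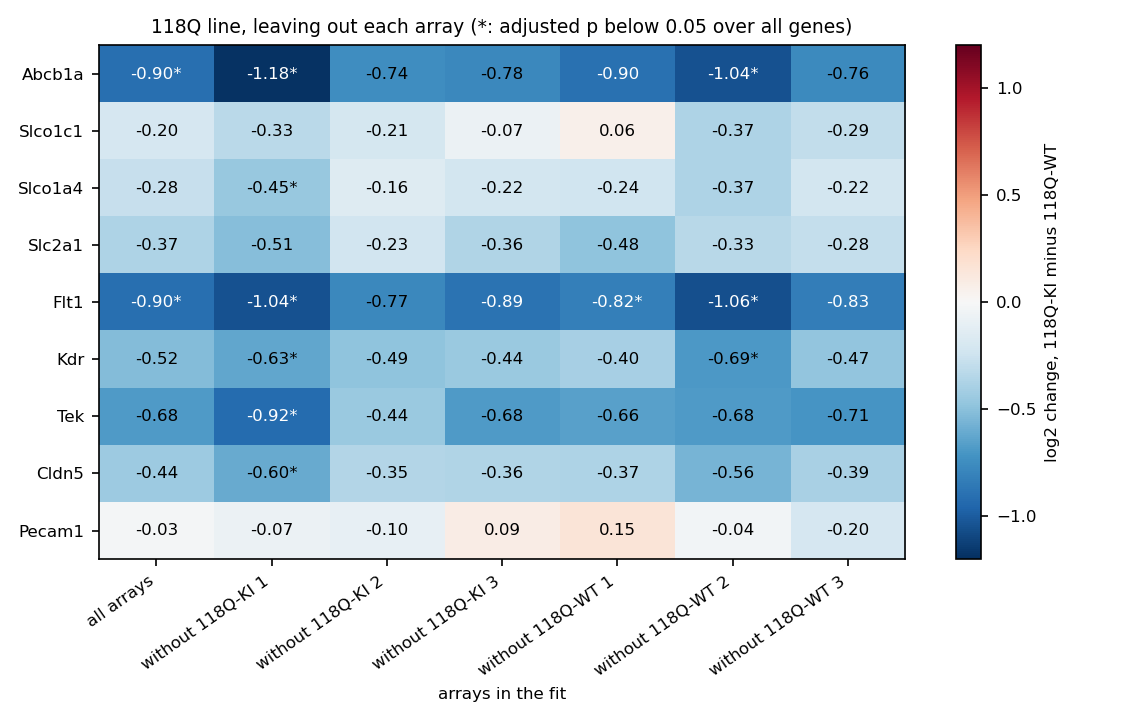
Log2 change of each gene (118Q-KI minus 118Q-WT, colour and number) with all arrays and without each of the line's 6 arrays, with asterisks for limma adjusted p below 0.05 over all genes. Without 118Q-KI 1 there are 6 calls, and without 118Q-KI 2, 118Q-KI 3 or 118Q-WT 3 there are none.

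An RNA quality measure, the mean log2 difference between the 3' and 5' control probe sets of Gapdh and beta-actin, also separated the groups of this line. It lay between 0.415 and 0.473 in 118Q-KI mice and between 0.496 and 0.614 in 118Q-WT mice. With this measure as a covariate, Flt1 was called (limma adjusted p = 0.0461) and Abcb1a was not (0.118), while its change was -0.87. Among the 9 genes, correlations with the measure after subtracting group means lay between -0.38 and 0.31 over 18 arrays.

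Markers of other cell types also moved in the 118Q line. Of 14 Purkinje cell markers, 8 were called lower and none higher, against 0.731% of all genes called lower. Their mean log2 level lay between 7.60 and 8.24 in 118Q-KI mice and between 8.49 and 8.53 in 118Q-WT mice. Of 13 microglia markers, 3 were called higher (Trem2, Tyrobp and Laptm5), against 0.808% of all genes, with a mean level of 3.98 to 4.26 in 118Q-KI mice and 3.48 to 3.79 in 118Q-WT mice. The Purkinje count was 0 without 118Q-KI 2, 118Q-KI 3 or 118Q-WT 3, 3 without 118Q-WT 1 or 118Q-WT 2, and 10 without 118Q-KI 1. The microglia count was 1 without 118Q-KI 3 or 118Q-WT 3 and 2 or 3 without each of the other arrays. Over all genes these fits made between 2 calls (without 118Q-WT 3) and 941 calls (without 118Q-KI 1). No astrocyte, granule cell, choroid plexus, meningeal or red blood cell marker was called. The part of these cell types and of RNA quality in the vascular changes was not tested.

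Other genes of the vessel wall were read from lists. In the 118Q line, 5.69% of all genes were lower at an unadjusted p below 0.05, and 16.1% were lower or higher. The counts of these lists are to be read against those shares. Of 15 other barrier transporters, none was called, 5 were lower and 1 higher at an unadjusted p below 0.05, and the median change was -0.13. The monocarboxylate transporter Slc16a1 changed by -0.33 (limma adjusted p = 0.132), the amino acid transporter Slc7a1 by -0.47 (0.178) and the lipid transporter Mfsd2a by 0.44 (0.241). Of 15 other junction and adhesion genes, none was called, 3 were lower at an unadjusted p below 0.05, and the median was -0.08. The scaffold of tight junctions Tjp1 changed by -0.50 (limma adjusted p = 0.0598) and the endothelial cadherin Cdh5 by -0.49 (0.126).

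Of 20 other genes of vascular growth factor signalling, none was called and 5 were lower at an unadjusted p below 0.05, with a median of -0.08. The adhesion receptor Adgrl4 changed by -0.60 (limma adjusted p = 0.0598), the phosphatase Ptprb, which acts on TIE2, by -0.51 (0.114), and the semaphorin and VEGF co-receptor Nrp1 by -0.63 (0.156). Of 14 other genes of endothelial identity, none was called, 5 were lower and 2 higher at an unadjusted p below 0.05, and the median was -0.24. Podxl changed by -0.48 (limma adjusted p = 0.0752), Vwf by -0.89 (0.206) and Ramp2 by 0.44 (0.214). In this list 10 changes were negative and 4 positive.

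Of 16 endothelial transcription factors, none was called, 2 were lower and 1 higher at an unadjusted p below 0.05. Hey1, a target of Notch signalling, changed by 0.39 (limma adjusted p = 0.0743), with every 118Q-KI array above every 118Q-WT array, and Ets1 by -0.45 (0.197). Of 12 genes of the Wnt pathway that maintains the barrier, none was called and 1, Ctnnb1 at -0.25 (limma adjusted p = 0.179), was lower at an unadjusted p below 0.05.

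Mural cells surround the endothelium. Of 12 pericyte markers, none was called, 3 were lower at an unadjusted p below 0.05, and the median was -0.24. Vtn changed by -0.53 (limma adjusted p = 0.0598), Abcc9 by -0.98 (0.0865) and Pdgfrb by -0.61 (0.229). Of 6 smooth muscle markers, 1 was called, against 0.731% of all genes called lower. In this list 2 were lower at an unadjusted p below 0.05, 4 changes were negative and 2 positive, and the median was -0.05. Acta2, smooth muscle actin, fell by 0.91 on the log2 scale (SE 0.22, limma adjusted p = 0.0437). It lay at 3.74 ± 0.21 in 118Q-KI mice and 4.64 ± 0.09 in 118Q-WT mice (SD, n = 3 each). Without 118Q-KI 1 the Acta2 adjusted p was 0.0229, and without any other array of the line it was between 0.0702 and 0.169. Averaged over its probe sets Acta2 changed by -0.31 (0.084).

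The other vascular and mural genes were also sensitive to single arrays. Without 118Q-KI 1, Slc16a1, Ocln, Adgrl4, Foxc1, Abcc9 and Vtn were called lower. Without 118Q-WT 2, Vwf, Podxl and Abcc9 were called lower. These fits called 5.17% and 1.32% of all genes. Of the 201 measured genes of all 16 lists, none was called by limma in the other lines. At an unadjusted p below 0.05, 19 were lower and 4 higher in CtmKO mice, 11.4% of the listed genes against 12% of all genes. In 11Q-KI mice 17 were lower and 4 higher, 10.4% of the listed genes against 5.49% of all genes. Of these 17 lower genes, 8 were among the 12 choroid plexus markers and so were not genes of the vessel wall.

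Low medians were not found in the 118Q line alone. Over all genes the median change was 0.04 in the 118Q line and -0.06 in the Ctm line. Negative changes made up 41.3% of all genes in the 118Q line and 64.4% in the Ctm line. In the Ctm line the median was -0.14 for the other transporters (14 of 15 negative), -0.21 for the junction and adhesion genes and -0.14 for growth factor signalling. It was -0.20 for endothelial identity, -0.15 for the transcription factors (-0.13 in the 118Q line), -0.19 for the Wnt pathway genes (-0.07 in the 118Q line) and -0.22 for the pericyte markers. Differences between lines were not tested for the lists.

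In the Ctm line no member was called by limma, against 0.929% of all genes, and none had an unadjusted p below 0.05. None of the 15 probe sets was called either, against 0.916% of all probe sets. The median change was -0.15, against -0.06 over all genes, and 8 of the 9 changes were negative, against 64.4% of all genes. Flt1 had log2 levels of 5.23, 5.16 and 4.84 in CtmKO mice, against 5.28, 5.22 and 5.19 in CtmWT mice, and the groups overlapped. Its change was -0.15, with a 95% interval of -0.46 to 0.16 (limma adjusted p = 0.736).

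Abcb1a had log2 levels of 5.15, 4.69 and 4.60 in CtmKO mice, against 4.96, 4.71 and 5.24 in CtmWT mice. Its change was -0.16, with a 95% interval of -0.60 to 0.28, and its other probe set changed by 0.29, so the probe sets differed in sign. Slco1a4 had log2 levels of 6.23, 6.15 and 5.97 in CtmKO mice, against 6.02, 5.84 and 5.78 in CtmWT mice, the only positive change among the 9 genes in this line (0.23, limma adjusted p = 0.525). Pecam1 had log2 levels of 2.53, 2.29 and 2.35 in CtmKO mice, against 2.69, 2.68 and 2.93 in CtmWT mice, and it was the 1 member whose groups did not overlap, against 15.1% of all genes lower in this way. Its change of -0.38 did not pass (limma adjusted p = 0.45).

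The remaining genes changed by -0.23 (Cldn5) to -0.07 (Tek) in the Ctm line. Their groups overlapped. For Slco1c1 the values were 6.26, 6.37 and 6.77 in CtmKO mice, against 6.79, 6.91 and 6.23 in CtmWT mice. Its change was -0.18, and with the mean of the choroid plexus markers as a covariate it was -0.05 (limma adjusted p = 0.917).

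In the 11Q line no member was called by limma, against 0% of all genes and 0% of all probe sets, and none had an unadjusted p below 0.05. Over all genes, 998 had an unadjusted p below 0.05 in this line. Kdr had log2 levels of 4.23, 4.58 and 4.40 in 11Q-KI mice, against 4.13, 4.21 and 4.21 in 11Q-WT mice. Every 11Q-KI array was higher, as for 4.14% of all genes, and the change was 0.22 with a 95% interval of -0.08 to 0.52 (limma adjusted p = 0.876). With the mean of the choroid plexus markers, described with Slco1c1, as a covariate the Kdr change was 0.35 (0.76). It was 0.34 with the 118Q-WT and 11Q-WT mice taken as 1 group of 6 (0.421) and 0.13 without 11Q-KI 2 (0.911).

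Slco1c1 had log2 levels of 6.16, 6.34 and 6.53 in 11Q-KI mice, against 6.62, 6.62 and 6.59 in 11Q-WT mice. Every 11Q-KI array was lower, as for 6.12% of all genes, and the change was -0.27 (limma adjusted p = 0.884). Slco1c1 is also known from the choroid plexus, and the mean level of 12 choroid plexus markers lay between 2.24 and 5.06 in 11Q-KI mice and between 5.23 and 5.70 in 11Q-WT mice. With that mean as a covariate, the Slco1c1 change in the 11Q line was 0.11 (limma adjusted p = 0.872).

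Abcb1a had log2 levels of 4.92, 5.15 and 5.00 in 11Q-KI mice, against 5.10, 5.28 and 5.43 in 11Q-WT mice, a change of -0.25 with a 95% interval of -0.69 to 0.19. Flt1 had log2 levels of 4.96, 5.23 and 5.07 in 11Q-KI mice, against 5.23, 5.07 and 5.18 in 11Q-WT mice, a change of -0.08 with a 95% interval of -0.39 to 0.23. In both genes the groups overlapped. The other 5 genes changed by -0.35 (Slc2a1) to 0.17 (Cldn5).

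**Figure D5:**
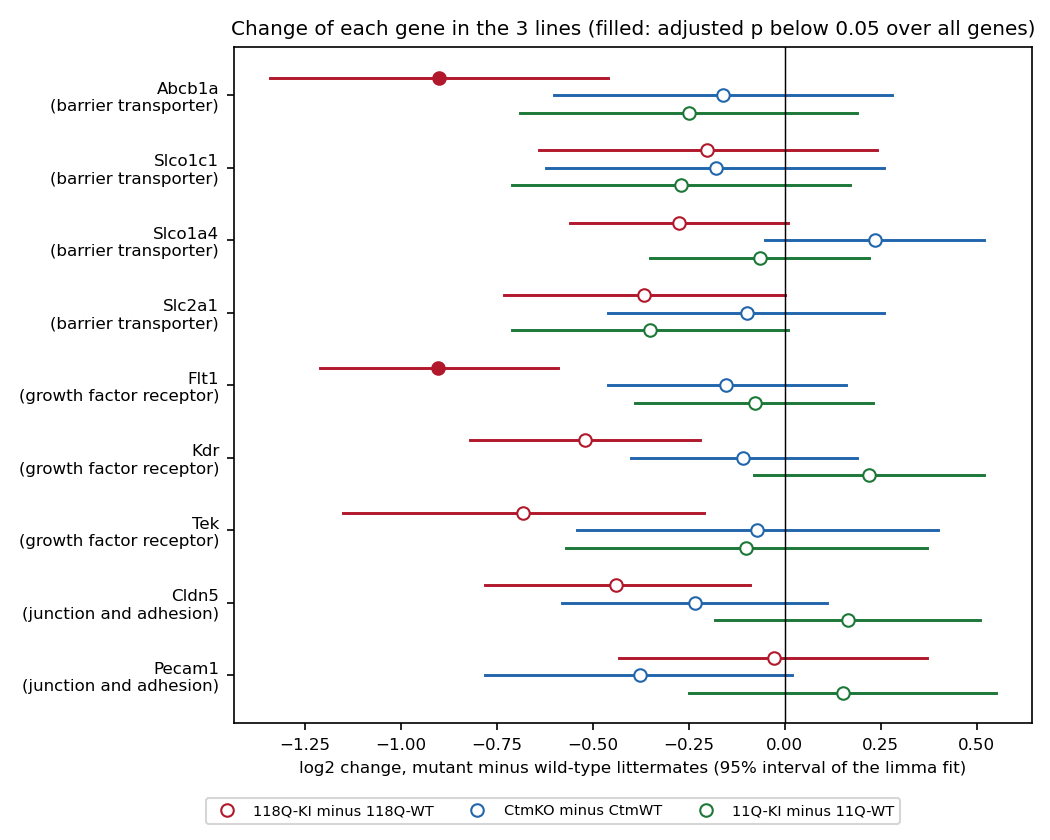
Log2 change with its 95% interval (horizontal axis, mutant minus wild-type littermates) of each gene in the 118Q, Ctm and 11Q lines, with filled points for genes called over all genes. The filled points are Flt1 and Abcb1a in the 118Q line, both at -0.90.

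The difference between the 118Q and Ctm changes was called for none of the 9 genes by limma, against 2.93% of all genes. An unadjusted p below 0.05 was found for 3 of the 9, against 18.9% of all genes. For Flt1 this difference was -0.75 (SE 0.21, limma adjusted p = 0.0597), for Abcb1a -0.74 and for Slco1a4 -0.51. The Slco1a4 difference includes a difference between the references, with means of 6.26 in 118Q-WT and 5.88 in CtmWT mice. Its mutant means were 5.98 in 118Q-KI and 6.12 in CtmKO mice. The Flt1 difference was called without 118Q-WT 2 (0.0319), and Abcb1a, Slco1a4 and Flt1 were called without 118Q-KI 1. The difference between the 118Q and 11Q changes was called for none either, against 0% of all genes. An unadjusted p below 0.05 was found for 4 of the 9, against 10.3% of all genes. It was -0.82 for Flt1 (limma adjusted p = 0.24) and -0.74 for Kdr (0.246), and Flt1 was called without 118Q-KI 1 (0.0445). Between the Ctm and 11Q changes no member was called and none had an unadjusted p below 0.05, against 0% of all genes called and 8.48% at an unadjusted p below 0.05. The changes in Flt1 and Abcb1a are thus not shown to be confined to the 118Q line.

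The wild-type groups themselves differed in 1 of the 9 members, a count near the share over all genes. Slco1a4 differed over the 3 wild-type groups (limma F test, adjusted p = 0.0288), against 9.78% of all genes. It was lower in CtmWT mice than in the 6 mice of 118Q-WT and 11Q-WT together by 0.47 on the log2 scale (SE 0.12, limma adjusted p = 0.0116), where 8.84% of all genes were lower. The F test lost its call without 11Q-WT 2 (0.0651), CtmWT 2 (0.107) or CtmWT 3 (0.129).

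Of the 9 genes, 6 varied together within groups. After each group mean was subtracted, the correlation of a gene with the mean of the other 8, over 18 arrays, was 0.83 for Slco1a4, 0.78 for Flt1, 0.77 for Cldn5, 0.73 for Abcb1a, 0.73 for Kdr and 0.63 for Tek. It was 0.24 for Slco1c1, 0.08 for Pecam1 and -0.03 for Slc2a1. Between 98.2% and 99.9% of all genes had a lower correlation than each of the first 6 genes with the same mean. The share was 72.4% for Slco1c1, 58.3% for Pecam1 and 42.9% for Slc2a1. Without the 118Q-KI arrays, over 15 arrays, the correlations of the first 6 genes lay between 0.44 and 0.73. They were then 0.06 for Slco1c1, 0.06 for Pecam1 and -0.52 for Slc2a1. Values of 1 array share its RNA sample and its normalisation, so these numbers describe the arrays only. Among pairs, Abcb1a and Cldn5 had the highest correlation, 0.90, and Slc2a1 and Pecam1 the lowest, -0.75.

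Outside the list, the genes whose values within groups were most like the mean of the 9 were Tkt (Pearson r = 0.93), Tuba8 (0.90), Syn2 (0.88), Rbks (0.86) and Tgfbr2 (0.86), over 18 arrays. Without the 118Q-KI arrays these values were 0.82, 0.80, 0.72, 0.67 and 0.87. With group means kept they were Ptprm (0.94), Pnmal2 (0.93), Tuba8 (0.93), Cacna2d2 (0.93) and Actg1 (0.92). Without the 118Q-KI arrays these values were 0.63, 0.64, 0.65, 0.54 and 0.71. These genes were picked for following a mean that is low in 118Q-KI mice, so their own changes in the 118Q line restate that choice and are not given.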

How the data were processed

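RNA of 18 cerebellum samples, 3 in each of 6 groups taken from the genotype labels, was measured on Affymetrix arrays. The deposited values are log2 expression per probe set, made by the authors with RMA (version not given), per the submitters' processing notes. RMA adjusts background, quantile-normalises and summarises probes, so levels are relative and dim probe sets are compressed. Detection calls and scan dates were not used here. RNA integrity numbers were above 5.0 per the labels.

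Of 45101 probe sets, 64 were controls and 34945 had exactly 1 symbol in the platform annotation. Each gene was represented by its brightest probe set (18193 genes), without a filter on dim genes. A linear model with a mean for each of the 6 groups was fitted with limma 3.58.1 (lmFit, eBayes, two-sided, R 4.3.3) to all 18 arrays and left 12 residual and 5.98 prior degrees of freedom, with Benjamini-Hochberg adjustment over all genes or all probe sets and a threshold of 0.05. Contrasts were mutant minus wild type in each line, differences between lines, and an F test over wild types. The fit was tested on simulated data with independent noise for each gene. That test cannot show how single arrays that differ as a whole affect the calls. The number of arrays limits the precision.

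All members were named, with at most 3 genes per list by smallest p in the 118Q line and the 5 genes most like the members. Of 219 entries in 16 lists, 203 were measured. The members, lists and tests were chosen with earlier results of these data known. Alternatives covered probe set choice, dim genes, eBayes, array weights, normalisation, RNA quality, choroid plexus level, replicate block, wild types used and each array left out. Leaving out Ctm wild types 2 and 3 was added after seeing the data. Promoter windows came from RefSeq on GRCm38.p6 for 8 of the 9 genes.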

Additional observations from a re-analysis of the deposited data

How the results depend on the processing

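In the 118Q line, 2 members were called. The count was 2 or 3 with dim genes left out, trend and robust eBayes, a second quantile normalisation, the choroid plexus covariate, both knock-in lines' 6 wild types pooled or a fold threshold of 1.5. It was 4 with array weights (Abcb1a, Flt1, Kdr and Tek). It was 1, Flt1, with probe sets averaged per gene, the RNA quality covariate or every probe set tested by itself, and 1 without Ctm wild types 2 and 3, chosen after seeing the data. It was 0 when the line's 6 arrays were fitted alone, a fit with fewer samples. Leaving out each array gave 0 to 6. Over all genes the 118Q calls, 280 in the main setting, were 37 with the RNA quality covariate, 424 with trend and robust eBayes, 567 with dim genes left out, 1579 with 6 wild types and 1740 with array weights, and 2 to 941 without each array. Of the probe sets, 1 was called, 3 with dim ones left out, and 0 to 6 without each array. In the Ctm and 11Q lines the count was 0 under every alternative run.

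Outside the members, Tjp1 (0.03), Adgrl4 (0.0315) and Vtn (0.0303) were called in the 118Q line with dim genes left out, and Acta2 lost its call with the choroid plexus covariate (0.0515).

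For the 118Q minus Ctm difference the count of 0 became 1, Flt1, with dim genes left out or trend and robust eBayes, and 0 to 3 without each array. Flt1 was also called there with array weights (0.0287, with Abcb1a and Slco1a4) and a second quantile normalisation (0.0397). For 118Q minus 11Q the count was 0 to 1 without each array, and for the wild-type groups 0 to 1. With 6 wild types all lines share 1 reference, which cancels in a difference between lines. That setting therefore compared the mutant groups directly, without their own littermates, and includes any difference between the lines. There Flt1 (0.000329) and Kdr were called for 118Q-KI against CtmKO. Abcb1a, Flt1, Kdr and Cldn5 were called for 118Q-KI against 11Q-KI.

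The replicate numbers were used as a block in 1 alternative. With the replicate block 2 members were called in the 118Q line (Abcb1a, 0.0415, and Flt1, 0.0133), none in the other lines, and 225 genes in all. The numbers did not pair samples: correlations between same-numbered samples lay between -0.097 and 0 (118Q), -0.199 and 0.229 (Ctm) and -0.128 and 0.158 (11Q).

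Signs that turned all belonged to changes that were not called. With 6 wild types the reference mice themselves were exchanged, and for the other settings the cause was not tested. With the mean of probe sets, Abcb1a was 0.064 in the Ctm line and Flt1 0.066 in the 11Q line. With array weights Tek was 0.15 in the 11Q line. With the RNA quality covariate Pecam1 was 0.033 in the 118Q line. With the choroid plexus covariate Slco1c1 was 0.11 and Slco1a4 0.007 in the 11Q line. With 6 wild types the CtmKO mice were set against 118Q-WT and 11Q-WT mice in place of their own littermates. The Ctm changes were then -0.24 for Slco1a4, 0.003 for Flt1, 0.083 for Kdr, 0.015 for Cldn5 and 0.097 for Pecam1. The 11Q changes, against the same 6 mice, were 0.033 for Slco1a4 and 0.008 for Flt1. Without Ctm wild types 2 and 3, Slc2a1 was 0.024 and Tek 0.088 in the Ctm line. Leaving out single arrays turned Slco1c1 (-0.368 to 0.058) and Pecam1 (-0.20 to 0.15) in the 118Q line, Slc2a1 (-0.18 to 0.007) and Tek (-0.153 to 0.024) in the Ctm line, and Tek (-0.25 to 0.18) and Pecam1 (-0.073 to 0.288) in the 11Q line.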

Other observations

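Of 14 hypoxia response genes, none was called in the 118Q line by limma, 2 were lower and 1 higher at an unadjusted p below 0.05, and the median change was -0.03. Over all genes, 5.69% were lower and 16.1% lower or higher at that threshold in this line. The glycolytic enzyme Pgk1 changed by -0.26 (limma adjusted p = 0.117), the transcription factor Hif1a by -0.29 (0.203) and the carbonic anhydrase Car9 by 0.35 (0.273). Slc2a1, a known hypoxia target, changed by -0.37 in the same line (0.304). Of 5 red blood cell markers none was called and none had an unadjusted p below 0.05, and their mean log2 level lay between 1.67 and 2.13 in 118Q-KI mice and between 1.79 and 2.05 in 118Q-WT mice. Only 5 of the 10 listed markers were measured, and these means lay under all array medians. The blood content of the samples cannot be read from them. Of 12 meningeal and fibroblast markers, all 12 changes were negative in the 118Q line, against 41.3% of all genes. None was called, and 3 were lower at an unadjusted p below 0.05, with a median of -0.28. In the Ctm line 11 of the 12 were negative, against 64.4% of all genes. There none was called, 4 were lower at an unadjusted p below 0.05, and the median was -0.32. At that threshold 12% of all genes were lower or higher in the Ctm line.

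In the Ctm line, of 13 microglia markers none was called. At an unadjusted p below 0.05, 4 were lower and 1 higher, against 12% of all genes lower or higher. The median was -0.26, against 0.54 in the 118Q line. This difference between lines was not tested for the list.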
